A study of Mus musculus with 4 samples.

Results

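The cells described here are microglia with reads of few or none of the immediate early genes, 573 of 13820 cells kept from 4 mouse brains. They were chosen by measured reads. A member had 40 or more genes with a read, at most 59300 reads in all, reads of Trem2 and of Cx3cr1, reads of at most 1 of the 4 immediate early genes Jun, Junb, Fosb and Egr1, and no read of Apoe, Cst7, Itgax, Cd3e, Cd79a or Ccr2. These 12 genes are the rule, and their levels in members are a description with no test. The members were 4.35% of the 13160 cells with a Trem2 read. They were set against 2 classes of cells. The IEG-high cells, 4017 in number, met every other condition of the rule and had reads of 2 or more of the 4 immediate early genes. The other Trem2-positive cells were the remaining 12587, and they include the IEG-high cells.

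All 4 animals were male 5XFAD mice aged 9 months. The 5XFAD transgenes are expressed in neurons, and amyloid plaques form. A pair of mice also carried a null allele of Abi3 on both copies (5XFAD;Abi3-/-, here Abi3-/-), and the other pair had intact Abi3 (here Abi3+/+). All were heterozygous for the Trem2 variant of the SJL background, and no mouse without the transgenes was profiled. Cells came from 1 brain hemisphere per mouse without cerebellum and olfactory bulb, dissociated in the cold with Accutase, and each mouse gave 1 library on a targeted panel of 397 immune genes. Abi3 is not on the panel, so its loss could not be checked in these cells.

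Microglia are the resident macrophages of the brain. In the homeostatic state they express surface receptors such as Cx3cr1, the fractalkine receptor, with which they sense neurons, and around plaques they pass, through Trem2 signalling, to a disease-associated state marked by Apoe, Cst7 and Itgax. Jun, Junb, Fosb and Egr1 encode transcription factors of the immediate early response, which is switched on within minutes of a stimulus without new protein, and which tissue dissociation is known to induce.

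The libraries held 3405 to 6476 cells before the filter and 2321 to 4499 after it, and 94.3% to 96.8% of the kept cells had a Trem2 read. Between 17 and 42 barcodes were shared by any 2 libraries, and no member barcode was shared. The values are reads and not molecules, and a cell with any read of a rule gene other than Cd79a had at least 6 of them. Requiring 2 or 5 reads in place of 1 therefore gave the same members. The number of mice limits every test below. Each rests on the spread over these 4 animals, of their levels or of the differences between classes within a mouse.

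The members were checked against marker lists of cell types. The 10 markers of microglia outside the rule were each in more than 80% of the members, from 83.6% for Adgre1 to 100% for C1qa, and together they took 521910 to 571478 RPM (reads per 1000000 reads outside the 12 rule genes). They took 495860 to 549642 RPM in the other Trem2-positive cells, so this list marks microglia and does not tell the homeostatic from the disease-associated state. In cells with reads of Cd3d, Trac and Trbc2 (T cells, 272 cells, median 17289 reads) C1qa was found in 8.82%, and in cells with reads of S100a8, S100a9 and Mmp9 (neutrophils, 111 cells, median 28620 reads) in 14.4%. No read was found in any member for 7 of 12 T cell markers, 6 of 8 B cell markers, 5 of 6 neutrophil markers, 4 of 6 markers of macrophages or monocytes and 3 of 6 markers of ependymal cells or astrocytes. The summed level of the T cell list was 68.3 to 161 RPM in members, and that of the macrophage list was 25.8 to 44.4 RPM. The neutrophil list took 78.5 to 1123 RPM, all of it S100a8. This gene was found in 4.36% of the members and 3.68% of the T cells, and its share was uneven between libraries, with 1.45% and 9.57% of the members of Abi3-/- mice 1 and 2 and 2.45% and 1.31% of those of Abi3+/+ mice 1 and 2. The myelin gene Mbp was found in 12.6% of members and in 65.1% of T cells. Tmem119 and P2ry12, the usual markers of homeostatic microglia, are not on the panel.

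The label "without immediate early genes" was met only in part. Of the 573 members, 270 had none of the 4 genes and 303 had 1, which was Jun in 120, Junb in 91, Egr1 in 84 and Fosb in 8. Just outside this limit lay 613 cells with 2 of the genes, followed by 1720 with 3 and 1684 with all 4. Having 3 or 4 of the genes was the usual state among the cells that passed the rest of the rule. Among the genes that had to be absent, Apoe decided most. A further 347 cells would have been members but for reads of Apoe, 150 but for Cst7, 93 but for Itgax and 9 but for Ccr2. None was lost through Cd3e or Cd79a alone.

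The members had fewer reads per cell than either other class. Their median was 17268 and 13280 reads in Abi3-/- mice 1 and 2, and 13084 and 15858 in Abi3+/+ mice 1 and 2. The IEG-high cells had 21593, 17205.5, 18467 and 21539.5 reads in the same order, and the other Trem2-positive cells had 25195, 20317, 20155 and 23202. In every mouse the members were the shallowest class. They also had fewer genes with a read, 64 to 69 at the median against 76 to 79 in the IEG-high cells. Against IEG-high cells matched one to one on reads within the mouse, the members still had fewer genes in all 4 mice, with medians of 69 against 75, 68 against 72, 64 against 69 and 66 against 68. The rule asks that genes be absent, and it therefore lowers the number of genes by itself.

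Of 385 genes outside the rule, 13 were found in 90% or more of the members of every mouse. The same 13 were in more than 90% of the IEG-high cells and of the other Trem2-positive cells of every mouse, so they are not particular to the members. A further 58 genes were found in 20% to 80% of the members of every mouse. The most abundant was Ctsd, the lysosomal protease cathepsin D, at 229609 and 306851 RPM in Abi3-/- mice 1 and 2 and 257571 and 234752 RPM in Abi3+/+ mice 1 and 2. C1qa, a chain of the complement initiator C1q, stood at 95402, 79501, 91192 and 105145 RPM in that order. The level of its partner C1qb varied more between libraries, with 79240, 32900, 71945 and 33812 RPM, which is high in mouse 1 of both genotypes and low in mouse 2 of both. Selplg, a ligand of selectins and a gene of homeostatic microglia, was at 65908, 48067, 63047 and 45917 RPM. The others of the 13 were Fth1, Ly86, Fcgr3, Cd9, Fcer1g, Lamp1, H2-K1, Itgam and Lyn. At the other end, 150 genes had no read in any member.

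The next question was what sets the members apart from IEG-high cells, which differ from them in the rule by the 4 immediate early genes only. The members had lower levels of further genes of the immediate early response, and of Rgs1, Ccl3, Il1a and Arl4c. In edgeR's quasi-likelihood test on reads summed per mouse and class, with the mouse as a block, 9 of 228 genes differed at an adjusted p under 0.05 (3.95%). All 9 calls pointed to lower levels in members. Cxcl10 was among the 9, but it had no read in members and is not counted as lower below. Both classes were cut from the same cells by the rule's genes, so a gene that varies with any of these genes or with depth can differ through the choice itself. The p-values say how alike the difference between the classes was in the 4 mice.

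Of the list of other immediate early and stress genes, 4 of 5 tested genes were lower in members, with a median log2 fold change of -1.87 against -0.06 over all 228 genes. Dusp1, a phosphatase that switches off MAP kinases and is itself an immediate early gene (chromosome 17, 26505591 to 26508472 in RefSeq's GRCm38.p6 annotation), led by significance. Its level in members was 1699 and 1444 RPM in Abi3-/- mice 1 and 2 and 1885 and 3887 RPM in Abi3+/+ mice 1 and 2, against 8161, 14686, 12471 and 21983 RPM in the IEG-high cells. The highest member value lay under the lowest value of the other class. The log2 fold change was -2.75 ± 0.18 (SE, 4 mice, edgeR adjusted p = 0.000178). Reads of Dusp1 were found in 24.3% of members and 81% of IEG-high cells.

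Ier3, immediate early response 3, a regulator of cell survival (chromosome 17, 35821713 to 35822911), had 909, 1871, 1020 and 1904 RPM in members and 3151, 4963, 4493 and 7432 RPM in IEG-high cells, in the same order of mice. The classes did not overlap, and the log2 fold change was -1.87 ± 0.13 (SE, edgeR adjusted p = 0.000178). Btg1, an inhibitor of cell division, was abundant in both classes. It had 5681, 6567, 7526 and 7675 RPM in members and 9325, 15282, 11875 and 17913 RPM in IEG-high cells (log2 fold change -1.0 ± 0.12, edgeR adjusted p = 0.00371). Dusp2, another phosphatase of MAP kinases, was rare, found in 2.27% of members and 11.6% of IEG-high cells. It was at 6.20, 68.5, 8.05 and 81.7 RPM in members and at 186, 383, 162 and 536 RPM in IEG-high cells, with a log2 fold change of -3.60 ± 0.54 (SE, edgeR adjusted p = 0.00945). Myc was the tested gene of the list that did not pass.

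Outside this list, Rgs1, Ccl3, Il1a and Arl4c were lower in members. Rgs1, which damps signals from G protein-coupled receptors (chromosome 1, 144244669 to 144249104), was at 559, 1149, 1539 and 1713 RPM in members and at 1773, 3969, 3455 and 5810 RPM in IEG-high cells. The members were lower within every mouse, and the log2 fold change was -1.64 ± 0.13 (SE, edgeR adjusted p = 0.000291). Ccl3, a chemokine that attracts leukocytes, fell by 1.25 on the log2 scale (SE 0.16, edgeR adjusted p = 0.00477). The cytokine gene Il1a fell by 0.70 (SE 0.11, edgeR adjusted p = 0.0117) and the small GTPase gene Arl4c by 0.50 (SE 0.06, edgeR adjusted p = 0.00254). Cxcl10, an interferon-induced chemokine, had no read in the 573 members, and it was found in 0.573% of the deeper IEG-high cells. For counting error alone, with the 4 mice pooled, 0 of 573 allows up to 0.524% of cells with a read, which is no limit on cells that express the gene. It passed the test, but it entered it through the IEG-high cells only, so no fold is given and no conclusion is drawn.

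**Figure D1:**
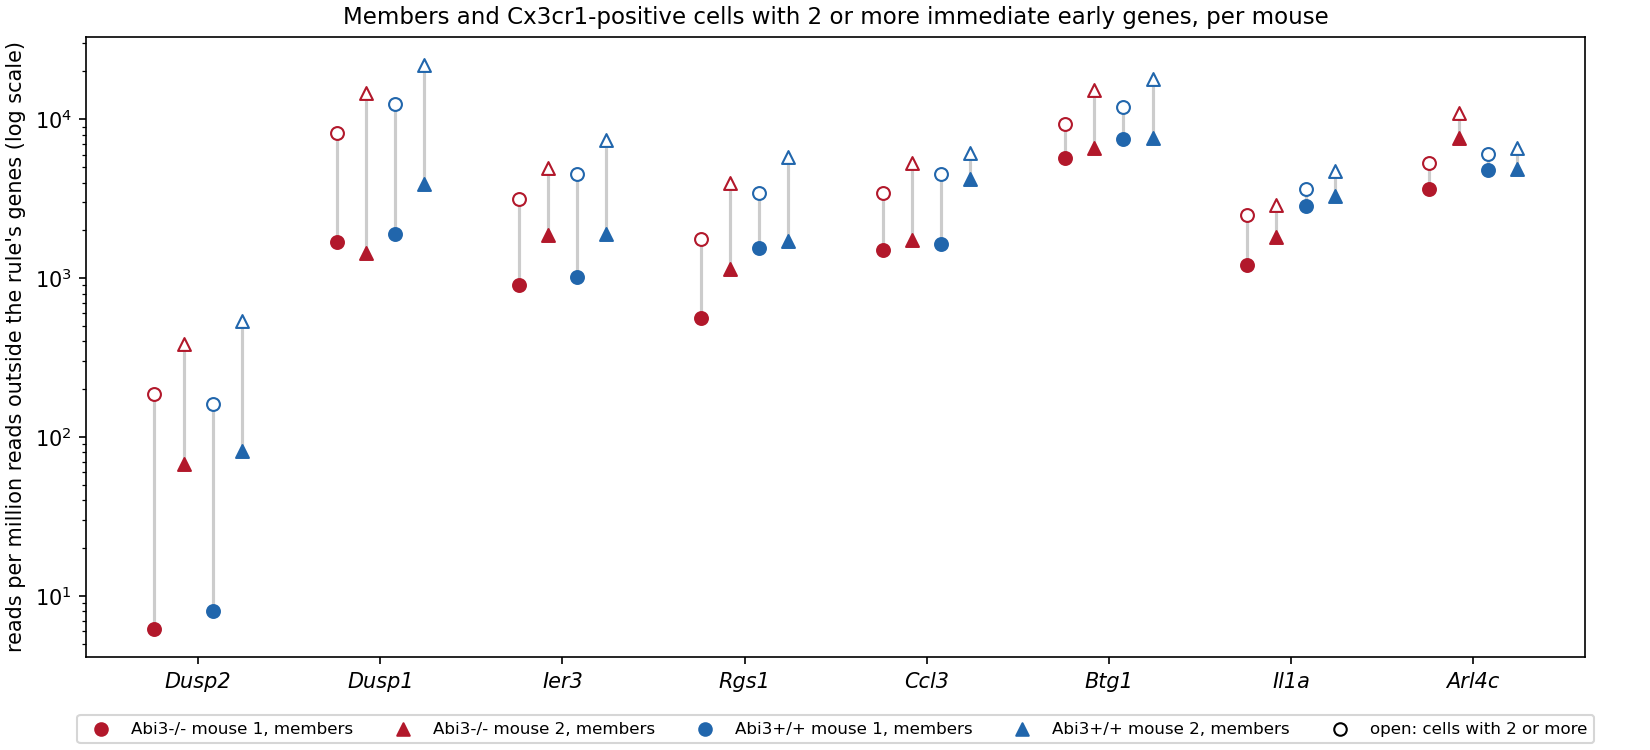
Levels of the 8 named genes in members (filled) and in IEG-high cells (open) of the same mouse, in RPM on a log axis, with 1 symbol per mouse and class. Every filled symbol lies below its open partner, and the vertical gap is widest for Dusp2 and Dusp1.

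These results were set against cells of like depth. When the 573 members were matched to IEG-high cells on reads, 213 genes were tested and 9 passed, of which 5 were also among the 9 above, namely Dusp1, Ier3, Rgs1, Btg1 and Arl4c. Dusp1 had a log2 fold change of -2.63 and Ier3 of -1.39 in that fit (edgeR adjusted p = 2.81e-05 and 0.000245). Ccl3, Dusp2 and Il1a had log2 fold changes of -0.62, -3.26 and -0.65 and did not pass (edgeR adjusted p = 0.169, 0.0628 and 0.136). The 4 genes that passed with matched cells alone were the cytokine gene Tnf (-1.50, edgeR adjusted p = 0.0134), the chemokine gene Ccl2 (-1.0, edgeR adjusted p = 0.0335), Ctsd (0.20, edgeR adjusted p = 0.00936) and S100a8 (6.62 ± 1.31, edgeR adjusted p = 0.0305). With all cells S100a8 was at 1123, 871, 78.5 and 475 RPM in members and at 0, 1335, 14.9 and 114 RPM in IEG-high cells, higher in members in 3 of 4 mice (log2 fold change 2.45 ± 1.73, edgeR adjusted p = 0.732). It had reads in 25 members, 18 of them in Abi3-/- mouse 2, and the matched cells held 0, 99, 0 and 30 of its reads against 1269, 2230, 165 and 1134 in the members, so its fold change with matched cells rests on few reads. Without Abi3+/+ mouse 1, 5 of the 9 genes passed, and Ccl3, Dusp2, Il1a and Cxcl10 did not. Without Abi3-/- mouse 2, Il1a and Cxcl10 did not pass. Without Abi3-/- mouse 1, 14 genes passed.

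The lead genes' promoters were read for short motifs through which the immediate early response is known to act. For 7 of the 8 named genes a promoter was found in the RefSeq table for GRCm38.p6, which covers 250 bases before to 50 bases after an annotated start of the gene. For Il1a this start lies inside the gene's full span (chromosome 2, 129299609 to 129310186), so that most of its window, 129309923 to 129310222, is within the gene. A pair of motifs was searched on both strands, the cyclic AMP response element TGACGTCA and the AP-1 motif TGACTCA, neither of which contains the other. Among the named genes the first was in the promoter of Dusp1 alone and the second in that of Il1a alone. Jun, Junb and Fosb, genes of the rule, were searched too, and their promoters held neither motif. Over all 32851 promoters of the table the motifs were in 1.79% and 5.20%. The stretch of Dusp1 is shown because Dusp1 led the comparison. It holds the 250 bases before the start of the gene on the minus strand, chr17:26508473-26508722, with the match in capitals, which begins 143 bases before the start.
Dusp1: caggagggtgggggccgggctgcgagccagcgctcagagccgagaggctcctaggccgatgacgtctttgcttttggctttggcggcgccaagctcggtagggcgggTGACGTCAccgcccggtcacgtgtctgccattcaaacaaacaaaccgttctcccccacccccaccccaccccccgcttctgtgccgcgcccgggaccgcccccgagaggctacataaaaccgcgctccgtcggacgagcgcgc
A match is a description of letters and not of a bound site.

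The abundant microglial genes had small fold changes against IEG-high cells. None of the 8 genes of the homeostatic list outside the rule passed the test, and their median log2 fold change was -0.01. Selplg was at 65908, 48067, 63047 and 45917 RPM in members and at 63345, 44407, 58985 and 47161 RPM in IEG-high cells (log2 fold change 0.01 ± 0.04, edgeR adjusted p = 0.964). C1qa differed by 0.05 ± 0.03 (SE, edgeR adjusted p = 0.743). Of the 18 disease-associated genes outside the rule, 1 passed, which was Ccl3, and the median of the list was 0.05. Fth1, the heavy chain of ferritin, had a log2 fold change of -0.17 ± 0.05 (SE, edgeR adjusted p = 0.114), and Lyz2, lysozyme, one of 0.19 ± 0.08 (SE, edgeR adjusted p = 0.415). None of the 6 genes of complement and Fc receptors, 12 of Toll-like receptors, 8 of antigen presentation, 9 of the cell cycle and 10 of lysosome and iron passed. A p that misses the threshold does not show that the classes are alike.

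Against all other Trem2-positive cells, the members differed in more genes. Lower in members were 4 of 5 immediate early and stress genes, 11 of 18 disease-associated genes and 3 of 8 antigen presentation genes, and 4 of 8 homeostatic genes were higher. Of 295 genes, 27 were lower (9.15%) and 11 were higher (3.73%) at an edgeR adjusted p under 0.05, and the median log2 fold change over all genes was -0.49. Without the scaling step called TMM the median was -0.33, and 26 genes were lower and 32 higher. With the 12 rule genes kept in the library size, 23 were lower and 16 higher. The other Trem2-positive cells include those with reads of Apoe, Cst7 and Itgax, which the rule kept out of the members, and these cells were deeper.

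Of the 8 homeostatic genes outside the rule, 4 were higher in members and none was lower, with a median of 0.33. Selplg was at 65908 and 48067 RPM in members of Abi3-/- mice 1 and 2 and at 63047 and 45917 RPM in those of Abi3+/+ mice 1 and 2, against 48459, 28933, 45086 and 34292 RPM in the other cells, lower than in the members of the same mouse each time (log2 fold change 0.36 ± 0.05, edgeR adjusted p = 0.0108). Il6ra, a chain of the interleukin-6 receptor, was higher by 0.40 and Entpd1, which breaks down extracellular ATP, by 0.28. Adgre1, the macrophage antigen F4/80, had a log2 fold change of 0.07 ± 0.07 (edgeR adjusted p = 0.489).

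Genes outside that list were also higher in members than in the other Trem2-positive cells. Il7r, the interleukin-7 receptor, rose by 0.93 ± 0.21 (SE, edgeR adjusted p = 0.0396) but was found in only 12.2% of members. The tetraspanin gene Cd37 rose by 0.77 and Slc25a37, a mitochondrial iron importer, by 0.61. Ifngr1, the interferon-gamma receptor, was at 7032, 6255, 6854 and 6181 RPM in members and at 4428, 3904, 4546 and 4642 RPM in the other cells (log2 fold change 0.42 ± 0.06, edgeR adjusted p = 0.00958). Itgam, an integrin chain, rose by 0.31, the chemerin receptor gene Cmklr1 by 0.28 and the kinase gene Lyn by 0.27. Each of the 11 was higher in members in 4 of 4 mice. Against the IEG-high cells 0 genes were called higher, so these rises are not shown to be particular to the members. Mean Itgam was 11512 RPM in members and 11087 RPM in IEG-high cells, and mean Lyn was 11472.5 and 11204 RPM. In that comparison Cmklr1 had a log2 fold change of 0.03 and Cd37 one of 0.42, with no call.

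Of the 18 disease-associated genes outside the rule, 11 were lower in members and none was higher, and the median was -0.79. The rule took cells with Apoe, Cst7 or Itgax out of the members, so genes that accompany these would be lower by that choice. Lyz2 was at 7475, 6429, 1858 and 5404 RPM in members and at 14049, 16589, 8430 and 13840 RPM in the other cells, with no overlap (log2 fold change -1.61 ± 0.20, edgeR adjusted p = 0.00632). Fth1 was at 38760, 41064, 26086 and 32881 RPM against 48236, 54921, 42060 and 50660 RPM (log2 fold change -0.68 ± 0.07, edgeR adjusted p = 0.00349). Lilrb4a, an inhibitory receptor, was found in 1.57% of members and 12.6% of the other cells, with 0, 111, 44.2 and 84.4 RPM in members against 490, 1177, 551 and 914 RPM. Ccl3 fell by 1.64, Cd52 by 0.91, Cd63 by 0.75, Ccl6 by 0.69 and Ctsd by 0.34. Cd9, a tetraspanin, had the smallest change of the 11, with a log2 fold change of -0.24 ± 0.05 (edgeR adjusted p = 0.0283).

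Of 8 antigen presentation genes, 3 were lower in members and 5 did not pass, with a list median of -1.72. Cd74, the invariant chain of MHC class II, was at 234, 355, 90.4 and 61.6 RPM in members and at 1909, 1323, 743 and 968 RPM in the other cells, a log2 fold change of -3.15 ± 0.35 (edgeR adjusted p = 0.00469). H2-Ab1, a class II chain, had 495, 94.1, 35.2 and 54.5 RPM in members against 1136, 468, 445 and 822 RPM, and the member value of Abi3-/- mouse 1 lay above the 2 lowest of the other class. The class I gene H2-K1 fell by 0.49, and H2-DMa and Cd86 had 0.02 and 0.11 with no call. Of the 5 immediate early and stress genes, 4 were lower, of which Dusp1 fell by 2.38, Ier3 by 1.59 and Btg1 by 0.61, and Rgs1, outside the list, fell by 1.45. Among genes in no list, Lgals1 (galectin-1) fell by 2.53 and the receptor gene Cd72 by 1.79. Cxcl10 and Fn1 (fibronectin) passed the test with no read in the 573 members, and they were found in 1.01% and 0.842% of the other cells. Both count among the 27 genes called lower. They entered the test through the other, deeper cells only, so no conclusion is drawn from them.

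None of the 8 inflammatory cytokine genes passed. Il1a had a log2 fold change of -0.33 ± 0.10 (edgeR adjusted p = 0.0951) and was found in 41.4% of members and 49.2% of the other cells, and Casp1 and Nlrp3 of the inflammasome had 0.22 and 0.34. None of the 6 complement and Fc receptor genes passed, with 0.10 for C1qa, 0.10 for C1qb and 0.06 for Fcgr3. None of 12 genes of the Toll-like receptor group passed, with -0.02 for Ly86, -0.18 for Cd14 and 0.11 for Tlr7. Of 12 interferon and STING genes, Ifngr1 was higher and Ifitm3 was lower, while Irf8 and Tmem173 had 0.06 and 0.30. Cxcl10 of this list also passed, but it had no read in members and is not read as lower. None of the 9 cell cycle genes passed, and Pcna, a clamp of the DNA polymerase, had a log2 fold change of -0.53 ± 0.15 (edgeR adjusted p = 0.0789), Mcm4 one of 0.03 and Mki67 one of 0.28 ± 1.44. Of the 10 lysosome and iron genes, 4 were lower, Slc25a37 was higher, and the membrane protein gene Lamp1 had -0.12 with no call.

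**Figure D2:**
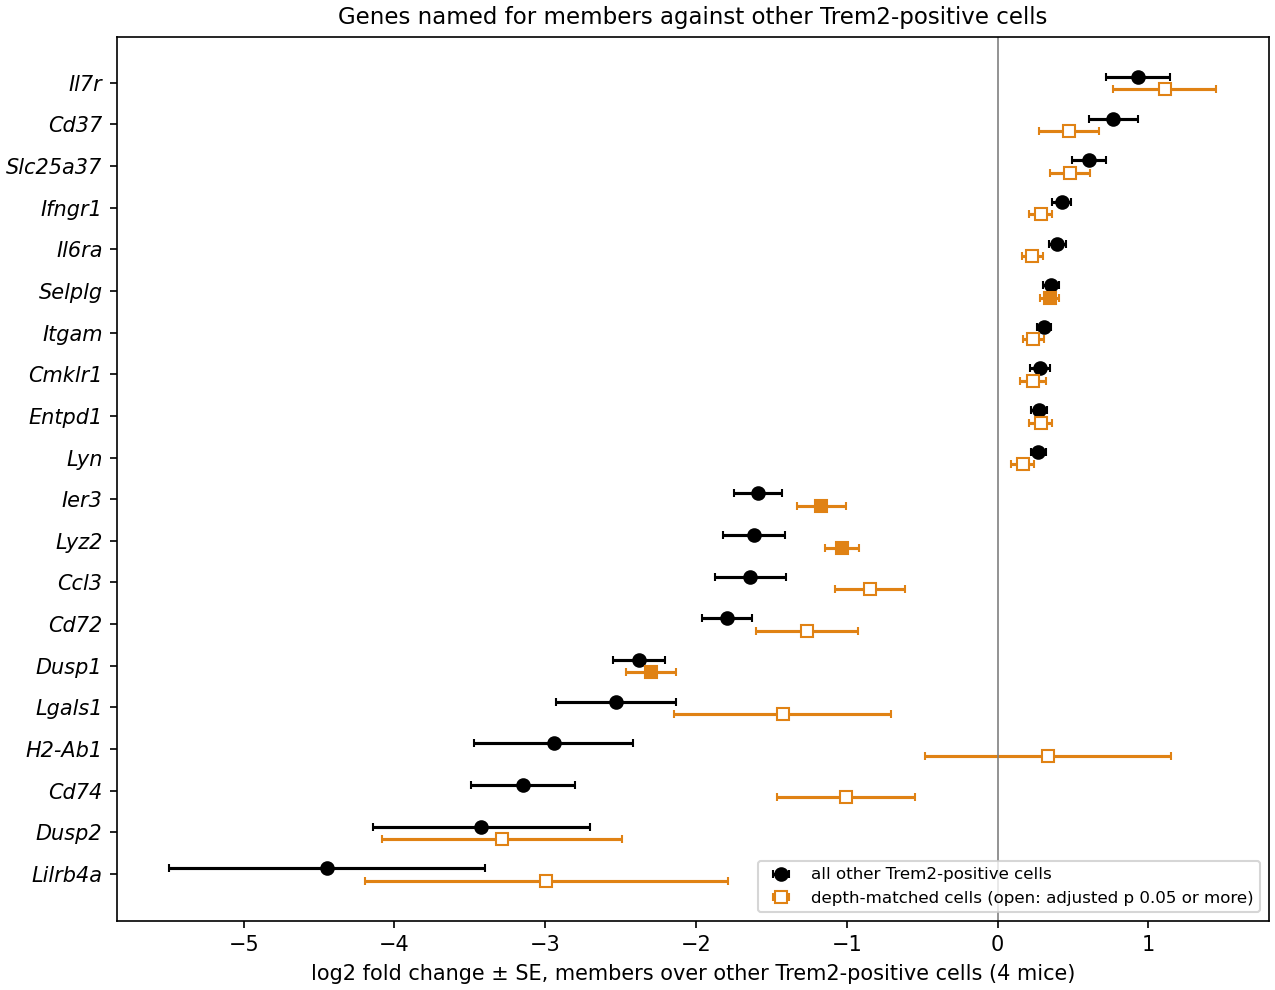
Log2 fold change ± SE of the 20 named genes, members over other Trem2-positive cells in 4 mice, from all cells (black circles) and from cells matched on reads (orange squares, filled where the adjusted p was under 0.05). With matched cells Dusp1, Ier3, Lyz2 and Selplg passed, and H2-Ab1 moved from -2.94 to 0.34.

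Against other Trem2-positive cells matched on reads, 217 genes were tested and 8 passed, all of them among the 38. Dusp1, Rgs1, Ier3, Lyz2, Btg1, Cd52 and Fth1 were lower, by 2.30, 1.27, 1.17, 1.03, 0.61, 0.57 and 0.50 on the log2 scale, and Selplg was higher by 0.35. None of the 3 antigen presentation genes passed, with -1.0 for Cd74 and -0.30 for H2-K1 (edgeR adjusted p = 0.269 and 0.0993). Ctsd, Cd9 and H2-Ab1 changed sign, to 0.05, 0.08 and 0.34. Some genes that no longer passed kept their fold change, such as Entpd1 with 0.29, Il7r with 1.11 and Dusp2 with -3.29 against -3.42 with all cells (edgeR adjusted p = 0.0842, 0.106 and 0.0675). For others the fold change shrank, with -0.85 for Ccl3, -1.43 for Lgals1, -0.32 for Cd63 and -0.37 for Ccl6 in matched cells. Matching also cut the compared cells from 12587 to 573, 69 to 188 a mouse, and the parts of depth and of cell number in the lost calls were not tested. The calls also depended on single libraries. Leaving out Abi3-/- mouse 2, Abi3+/+ mouse 1 or Abi3+/+ mouse 2 left 15, 14 and 18 genes called, and 10 of the 38 passed whichever mouse was left out, among them Cd52, Cd72, Ctsd, Dusp1, Fth1, H2-K1, Hif1a, Ier3 and Rgs1.

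By genotype, the members ranged from 3.14% to 5.06% of the Trem2-positive cells, and the genotypes were separated by 4.40% in Abi3-/- mouse 2 against 4.44% in Abi3+/+ mouse 1. They made up 3.14% (69 of 2196; exact 95% binomial interval 2.45% to 3.96%) and 4.40% (188 of 4269; 3.81% to 5.06%) of the Trem2-positive cells of Abi3-/- mice 1 and 2. In Abi3+/+ mice 1 and 2 they made up 4.44% (163 of 3674; 3.79% to 5.15%) and 5.06% (153 of 3021; 4.31% to 5.91%). The intervals cover counting error alone. The means were 3.77% ± 0.892 and 4.75% ± 0.444 (SD, n = 2 each), a difference of -0.978 percentage points. An exact two-sided permutation test gave p = 0.33, which is the smallest that 2 mice against 2 allow. The genotypes overlapped (exact permutation p = 0.667 each) with none of the 4 genes allowed (2.20% in Abi3-/- mouse 2 against 1.85% in Abi3+/+ mouse 1), without the cell filter (3.86% against 3.78%), with 60 or more genes required (3.95% against 3.36%) and with cells thinned to 10000 reads (3.80% against 3.49%). Each cell that met the rule after thinning, 68 and 153 in Abi3-/- and 123 and 150 in Abi3+/+ mice, was a member before it. The thinned shares thus moved through the cells under 10000 reads that were left out. Whether missing reads of the rule's genes follow from depth was not tested by it. With up to 2 of the 4 genes allowed the genotypes stayed apart. The shares were then 6.15% and 7.87% in Abi3-/- and 9.61% and 11.98% in Abi3+/+ mice, a difference of -3.79 points (exact permutation p = 0.33).

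The direction of this difference depended on what the members were counted against. As a percent of the cells that passed every condition other than that on the immediate early genes, they amounted to 18.4% and 15.2% for the Abi3-/- genotype and 9.04% and 13% for Abi3+/+, a difference of 5.75 points in the opposite direction (exact permutation p = 0.33). Genes that set the second denominator were uneven between mice. Apoe had reads in 71.3% and 51.2% of the Trem2-positive cells of Abi3-/- mice 1 and 2 and in 36.5% and 36.2% of those of Abi3+/+ mice 1 and 2. Cst7 had reads in 39.5%, 44.6%, 25.1% and 27.1% in that order, Itgax in 29.1%, 33.1%, 16.5% and 27%, and Cx3cr1 in 94.1%, 88.4%, 92.9% and 75.7%. The part of each in the denominator was not tested. With Apoe allowed in members, the shares of Trem2-positive cells were 9.84%, 6.42%, 6.18% and 6.72%, and the difference was 1.68 points (exact permutation p = 0.667). Reads of Junb were also uneven, in 46.3% of the Trem2-positive cells of Abi3+/+ mouse 2 and 71.3% to 77.5% elsewhere, and with Junb left out of the rule the difference was -0.410 points.

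**Figure D3:**
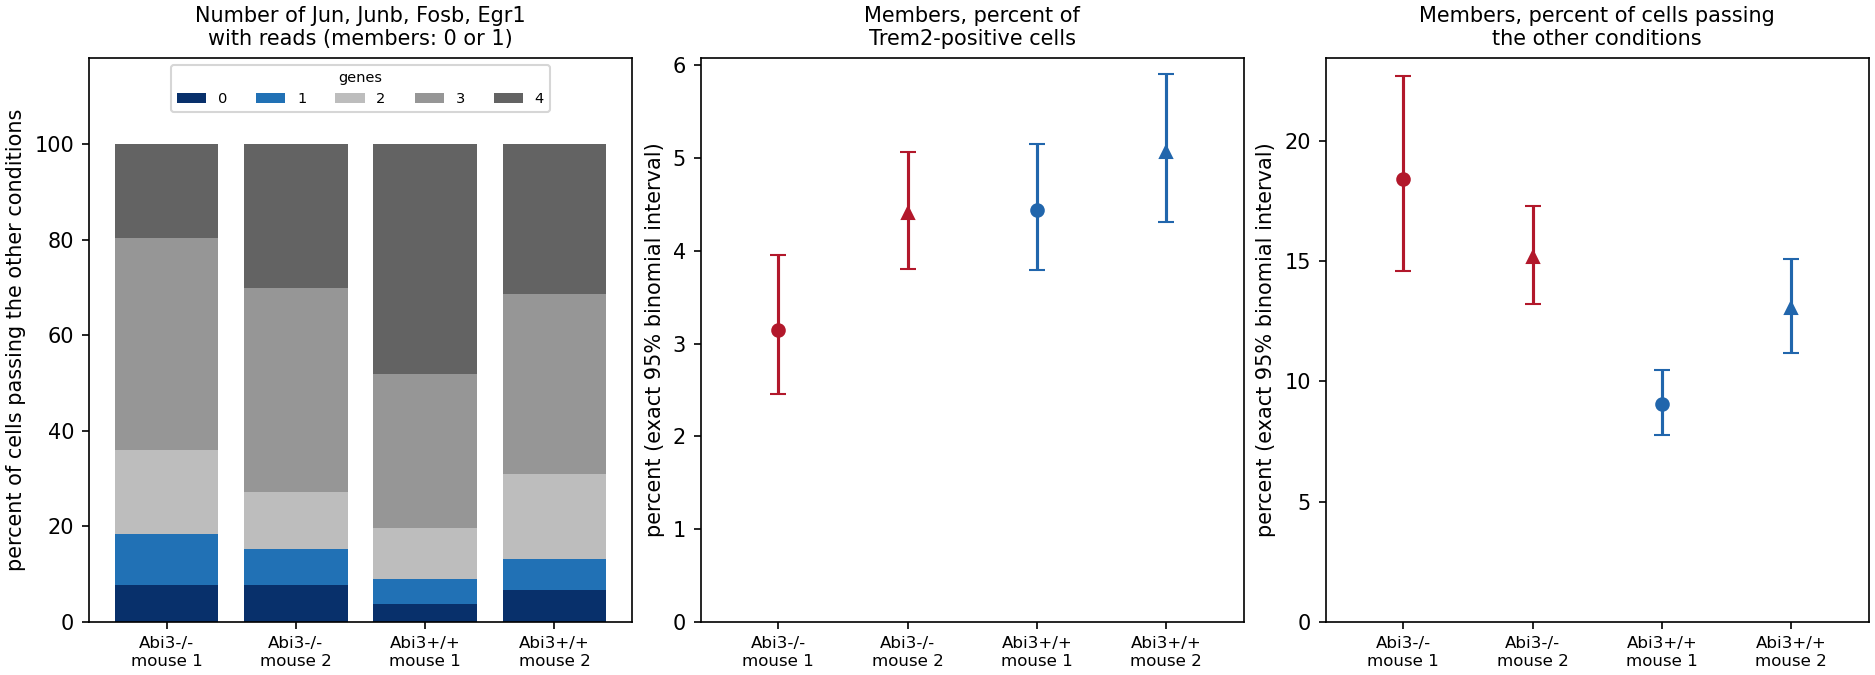
Left, share of the cells passing the rule's other conditions by the number of the 4 immediate early genes with reads, per mouse. Middle and right, members as a percent of Trem2-positive cells and of the cells passing the other conditions, with exact 95% binomial intervals. The Abi3-/- mice are the lowest in the middle panel and the highest in the right one.

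Within the members, no single gene passed the test between the genotypes. Of 218 genes tested, 0 passed an adjusted p of 0.05 in edgeR (0%), 15 had an unadjusted p under 0.05, and DESeq2 called 1. With mice of the same number as a block, edgeR called 7, 3 higher and 4 lower in Abi3-/- mice, but the labels do not tie these numbers to a batch. The genotypes did not overlap for 93 of the 218 genes (42.7%), 41 higher (18.8%) and 52 lower (23.9%) in Abi3-/- mice. A full separation of 2 mice from 2 has an exact two-sided permutation p of 0.33, so it is common without any effect of genotype. Overlap of the genotypes in a gene's level was judged on the TMM scale, here and below. The RPM values printed carry no such scaling. The one gene that DESeq2 called was Gapdh, a glycolytic enzyme and common reference gene, at 13795 and 14265 RPM in Abi3-/- mice 1 and 2 and 7981 and 8770 RPM in Abi3+/+ mice 1 and 2. Its log2 fold change was 0.86 ± 0.16 (SE, edgeR adjusted p = 0.463).

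Among the members' own markers, the most abundant overlapped between the genotypes. Selplg had a log2 fold change of 0.19 ± 0.31, C1qa of -0.04 ± 0.25 and Ctsd of 0.23 ± 0.30 (SE, edgeR adjusted p = 0.993, 0.996 and 0.93). Adgre1 was at 7043 and 6959 RPM in Abi3-/- and 10574 and 11836 RPM in Abi3+/+ mice (log2 fold change -0.56 ± 0.16, edgeR adjusted p = 0.698). Of the 5 immediate early and stress genes none passed, and 2 did not overlap, against 42.7% of all genes. Dusp1 was at 1699, 1444, 1885 and 3887 RPM, and the higher Abi3-/- value lay just under the lower Abi3+/+ value on the TMM scale. Of 7 inflammatory cytokine genes none passed, 4 were lower without overlap and 0 higher, against 23.9% and 18.8% of all genes. Among the 4, Il1a was at 1207 and 1804 RPM in Abi3-/- and 2843 and 3278 RPM in Abi3+/+ mice (log2 fold change -0.91 ± 0.24, edgeR adjusted p = 0.698). Of 12 genes of the Toll-like receptor group none passed, 5 were lower without overlap and 1 was higher.

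Of the 8 antigen presentation genes, none passed between the genotypes. For 6 of them each Abi3-/- value exceeded each Abi3+/+ value, against 18.8% of all genes, for 1 the order was the opposite, and the list median was 1.31 against -0.01 over all 218 genes. Cd74 was at 234 and 355 RPM in Abi3-/- and 90.4 and 61.6 RPM in Abi3+/+ mice (log2 fold change 2.05 ± 0.78, edgeR adjusted p = 0.698). H2-Ab1, at 495, 94.1, 35.2 and 54.5 RPM, was highest in Abi3-/- mouse 1, and it was found in 2.79% of all members. Cd74 was found in 5.41% and H2-Aa in 1.22% of them, so the values of these class II genes rest on few cells. The genes of the list need not be separate observations, and whether the same cells carried them was not tested. Of the 18 disease-associated genes none passed, 5 had both Abi3-/- values above both Abi3+/+ values, and 4 the opposite, against 18.8% and 23.9% of all 218 genes. Among the 5 were Lyz2 (1.08 ± 0.48) and Fth1 (0.56 ± 0.19), and the 4 were Ccl4 (-2.19), Csf1 (-1.83), Ccl6 (-0.43) and Cxcl16 (-0.13). Of 11 interferon and STING genes none passed, 4 were higher without overlap, among them Ifitm3 (1.71 ± 0.48), and 2 were lower, to be read against the same shares of all genes.

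A pair of genes stood apart in 1 library. Qpct, glutaminyl cyclase, was at 1958 RPM in the members of Abi3-/- mouse 2, where 42.0% of them had a read, and at 0, 37.6 and 49.8 RPM in the members of Abi3-/- mouse 1 and Abi3+/+ mice 1 and 2. The other classes showed the same, with 1750 RPM in the IEG-high cells of Abi3-/- mouse 2 and 13.2 to 52.1 RPM in those of the other mice. Lat2, an adaptor of immune receptors, was found in 39.1%, 41%, 58.3% and 70.6% of members, but its level was 77.7 RPM in Abi3-/- mouse 2 against 1502, 3066 and 4038 RPM elsewhere. In the IEG-high cells it was 78.4 RPM in that library against 1798, 2819 and 3827 RPM, so neither pattern was particular to the members. Each mouse gave 1 library, and whether the patterns come from the library or the animal was not tested. The fewest reads of Lat2 in a cell with a read was 1 in that library and 9 to 10 in the others.

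**Figure D4:**
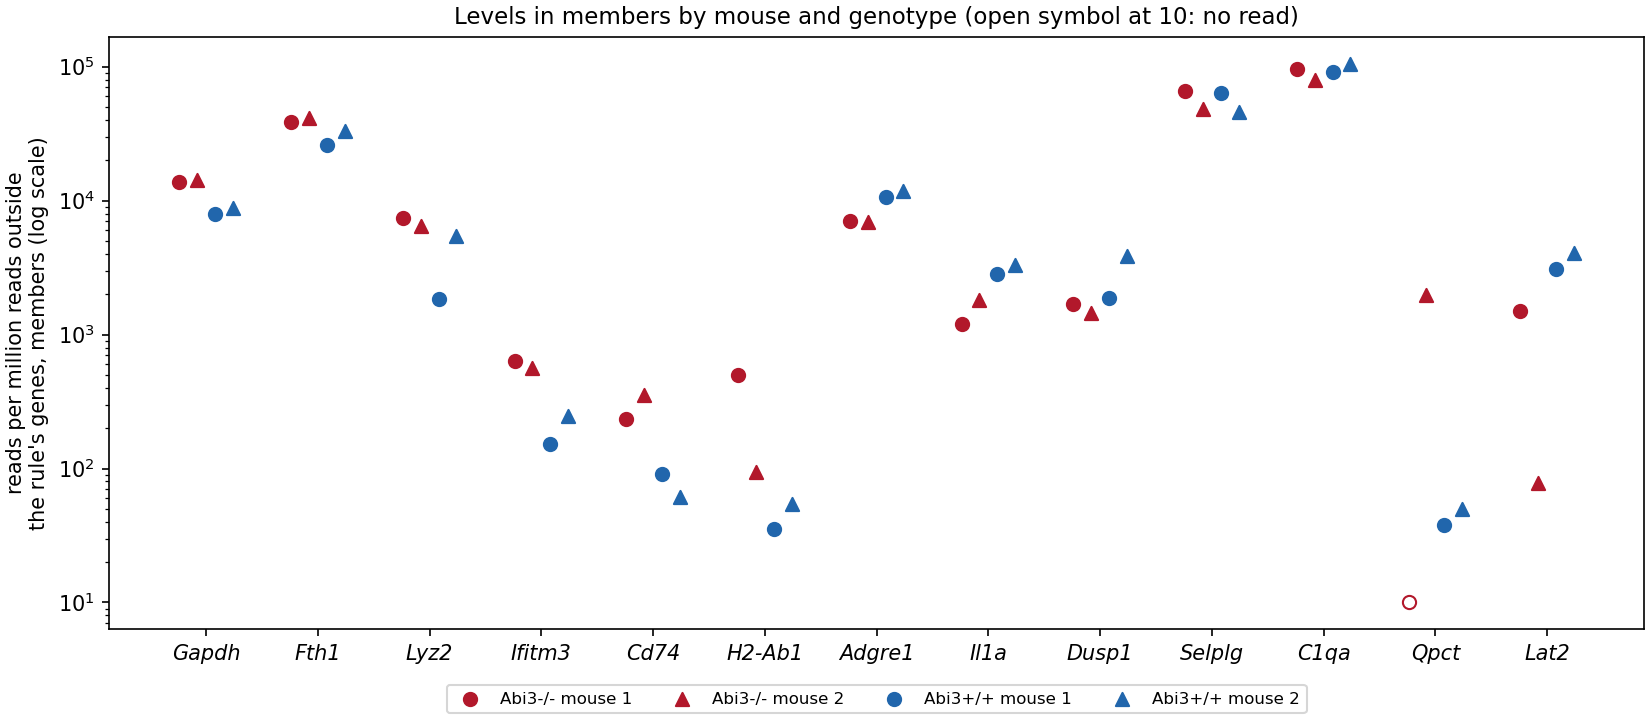
Levels of 13 genes in the members of each mouse, in RPM on a log axis (red Abi3-/-, blue Abi3+/+, circles mouse 1, triangles mouse 2). Gapdh, Adgre1 and Il1a separate the genotypes, Selplg and C1qa do not, and Qpct and Lat2 each have 1 library that stands apart.

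The last comparison asked whether the members differed from the other Trem2-positive cells in the same way in both genotypes. In the edgeR test of the interaction, 0 of 295 genes passed (0%), 8 had an unadjusted p under 0.05, and DESeq2 called 2, Chil3 and Spp1. For Dusp1 the interaction was -0.08 ± 0.36 on the log2 scale and for Rgs1 -0.25 ± 0.24 (SE, edgeR adjusted p = 1 for both). For Ier3 it was 0.62 ± 0.20, with an unadjusted p of 0.0269 and an adjusted p of 1. Spp1, a gene of disease-associated microglia, had reads in the members of both Abi3-/- mice, at 39.8 and 38.3 RPM, and none in those of the Abi3+/+ mice. These reads came from 3 cells, 1 in Abi3-/- mouse 1 and 2 in Abi3-/- mouse 2.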

How the data were processed

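Single brain cells from 4 male 5XFAD mice, 2 of them Abi3-/- and 2 Abi3+/+, gave 1 library each. The authors used the default targeted pipeline of the BD Rhapsody system, and the deposited tables hold its error-corrected (DBEC) read counts, whole numbers by gene and cell. The processing notes name the build mm10, and a pipeline version is not given in the sources used here. The counts are reads and not molecules, so intervals cover counting error only. No doublet caller was run beyond the upper limit of 59300 reads.

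Members and gene lists were chosen with earlier results of these data known. Reads were summed per mouse and cell class, the 12 rule genes were left out, and edgeR 4.0.16 in R 4.3.3 tested genes after filterByExpr and TMM normalization, with the quasi-likelihood test and Benjamini-Hochberg adjustment (threshold 0.05). Comparisons between classes had the mouse as a block. Standard errors came from the fold change and the F value. Levels are reads per 1000000 reads outside the rule (RPM) and carry no TMM scaling. Summed reads of the members were 1210213, 2717476, 2271703 and 2572658 in Abi3-/- mice 1 and 2 and Abi3+/+ mice 1 and 2. Shares were compared by an exact two-sided permutation test, with Clopper-Pearson intervals for single mice (SciPy 1.17.1).

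Named genes were up to 10 per direction with the largest fold change among those with an adjusted p under 0.05, the same direction in every mouse, and reads in 5% or more of the higher class. The 3 genes of each list with most reads in members, and Qpct and Lat2, were named too, and further genes were named after their values were seen. A gene that the rule would name is not reported here, though it counts in the totals. DESeq2 1.42.0, limma 3.58.1 on log-normalized values, no TMM, no low-count filter, depth-matched cells, cells thinned to 10000 reads, no mouse block, a replicate block and leaving out each mouse were alternatives. The edgeR step was checked on simulated counts. With 4-fold changes in 200 of 295 genes and the dispersion seen here (0.4), it recovered 61% of them between classes, with 1 false call. At a dispersion of 0.01 it recovered 99.5%, with 19 false calls. For the comparison of genotypes in members, 200 of 218 genes were changed 4-fold, and at the dispersion seen there (0.684) the step recovered 0%. The absence of calls there therefore does not show that the genotypes are alike. At a dispersion of 0.01 it recovered 100% there, with 13 false calls among the few unchanged genes. In both simulations most genes were changed, which the data need not share, so the false calls do not give the error rate of the tests above.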

Additional observations from a re-analysis of the deposited data

How the results depend on the processing

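Each comparison was repeated under the alternatives. Between members and other Trem2-positive cells, 38 genes were called, and DESeq2 called 133, the fit without TMM 58, that with depth-matched cells 8, that without the mouse block 91, and those without 1 mouse 14 to 34. Of the 38, 5 were called under all 12 alternatives (Cd52, Dusp1, Fth1, Ier3 and Rgs1). Against IEG-high cells, 9 genes were called, with 24 by DESeq2, 25 by limma, 4 without the mouse block and 5 to 14 without 1 mouse, and Btg1, Dusp1 and Ier3 were called under all 12. Between genotypes within members, 0 genes were called by edgeR, 1 by DESeq2, and 0 to 3 without 1 mouse, where a lone mouse is assumed to vary like the others. With the replicate block, 7 were called, but the labels do not say whether mice with the same number share a batch, and across 218 genes the differences between mice 1 and 2 in the 2 genotypes correlated with r = 0.11 (log2 of RPM plus 10). For the interaction, DESeq2 called 2 genes. Causes were not tested.

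The difference in the share of members reversed to 1.68 points with Apoe allowed and to 5.75 as a percent of the cells passing the other conditions, the latter chosen after seeing the data, as was leaving out Junb. It was -0.472 with none of the 4 genes allowed, -3.79 with up to 2 allowed, -0.585 without the cell filter and -0.514 with 60 or more genes required, and without 1 mouse it was -1.61 to -0.347. Thinning left out 26, 288, 181 and 64 cells, of which 1, 35, 40 and 3 were members, and gave -0.805. It made no further cell a member.

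Among named genes against other Trem2-positive cells, signs reversed with depth-matched cells for Cd9 (0.079), Ctsd (0.050), H2-Ab1 (0.34), Lamp1 (0.071) and Ly86 (0.12), and with limma for Casp1 (-0.051), Cd86 (-0.057), H2-DMa (-0.24), Irf8 (-0.091), Ly86 (0.13), Mcm4 (-0.016) and Tlr7 (-0.071). They did so without TMM for Lamp1 (0.043) and Ly86 (0.14), without the low-count filter (0.027) and with the rule genes kept in the library size (0.051) for Ly86, and with DESeq2 for H2-DMa (-0.0052). Without 1 mouse, Adgre1 ranged from -0.014 to 0.061, H2-DMa from -0.083 to 0.072, Irf8 from -0.019 to 0.049, Mcm4 from -0.21 to 0.10 and Mki67 from -0.49 to 1.16. Against IEG-high cells Selplg reversed with limma (-0.016) and ranged from -0.00050 to 0.057 without 1 mouse. Between genotypes within members, Cxcl16 reversed in members with none of the 4 immediate early genes (0.14), C1qa ranged from -0.24 to 0.14 without 1 mouse, Selplg from -0.13 to 0.45 and Qpct from -9.32 to 5.55, so the value of Qpct rests on Abi3-/- mouse 2.
Abi3-/- mouse 1 gave the fewest members, 69, and the effect of this number on the comparisons of genotypes was not tested.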
